A study of Mus musculus with 3 samples.

Results

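The genes described here are 8 that belong to the glucocorticoid pathway, the receptor gene Nr3c1 and 7 genes that glucocorticoids are known to induce (Fkbp5, Tsc22d3, Sgk1, Zbtb16, Fam107a, Klf9 and Errfi1), together with the leptin receptor gene Lepr. They are 9 of the 41799 genes listed in the deposited tables, and were selected by name and matched on the gene symbol. Because they were chosen from genes whose levels in these libraries were already known, their values are given as a description with no test. The 3 groups, with 1 RNA sequencing library each, were liver samples of C57BL/6 males, 14 weeks old. The chow group ate regular chow. The HFD group ate a high-fat diet, and the DfCS-Ib group ate the same diet and received DfCS-Ib, a sulfated oligosaccharide known by a code name, at 40 mg/kg by gavage in water. The labels give 8 mice per group and do not say how many of them gave RNA to a library, at what time of day liver was taken or whether the mice had eaten. No group had a second library, so there is no replicate error, and each comparison is between libraries and not between conditions.

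Glucocorticoids bind the receptor encoded by Nr3c1, which is held in the cytoplasm by HSP90 chaperones and immunophilins, enters the nucleus on binding the hormone and activates genes near its DNA elements. In the liver this raises gluconeogenesis and amino acid breakdown during fasting, and the adrenal hormone also follows a daily rhythm. Several of the induced genes feed back on the pathway or on growth signals: FKBP5 lowers the receptor's affinity for hormone, and ERRFI1 inhibits the EGF receptor. The leptin receptor is a cytokine receptor that signals through JAK2 and STAT3, and in mouse liver its messenger RNA is known to rise on fasting.

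The sequences that the receptor could bind near the start sites were looked up in RefSeq promoter windows of the GRCm38.p6 build, each 300 bases long (250 before the start site and 50 after it). There were 18 windows for 7 of the 9 genes; Zbtb16 had no entry and the window of Nr3c1 was not used here. The motif was the 6-base half-site AGAACA or its reverse complement TGTTCT, called an element in this paragraph. It is a part of the full receptor element. The palindrome was AGAACA, any 3 bases, then TGTTCT. Of 32817 windows of all genes, 19% held at least 1 element, 2.54% held at least 2 and 3 windows, or 0.00914%, held the palindrome. Among the 18 windows 6 held an element, namely 1 of Tsc22d3, 3 of Sgk1 and 2 of Fam107a that overlap almost entirely. A match is a description of letters in the window and not a binding site. A window of Sgk1 (chromosome 10, 21993640 to 21993939, plus strand) is shown because it is the member's window with the palindrome, which begins 189 bases before the start. A window of Fam107a (chromosome 14, 8309730 to 8310029, minus strand) and a window of Lepr (chromosome 4, 101717157 to 101717456, plus strand) are shown because these genes differed most between libraries. The Fam107a window has 2 elements, 158 and 110 bases before the start, and the Lepr window has none. Another Fam107a window (8317558 to 8317857), nearer the listed 5′ end of the gene, has no element. The window printed is thus not the only start site of Fam107a. Each is written 5′ to 3′ with the elements in capitals.
Sgk1: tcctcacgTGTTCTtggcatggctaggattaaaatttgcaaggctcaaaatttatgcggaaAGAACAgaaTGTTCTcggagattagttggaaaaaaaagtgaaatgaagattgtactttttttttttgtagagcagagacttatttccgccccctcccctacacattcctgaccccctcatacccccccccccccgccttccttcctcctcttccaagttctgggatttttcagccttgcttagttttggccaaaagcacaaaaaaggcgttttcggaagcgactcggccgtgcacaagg
Fam107a: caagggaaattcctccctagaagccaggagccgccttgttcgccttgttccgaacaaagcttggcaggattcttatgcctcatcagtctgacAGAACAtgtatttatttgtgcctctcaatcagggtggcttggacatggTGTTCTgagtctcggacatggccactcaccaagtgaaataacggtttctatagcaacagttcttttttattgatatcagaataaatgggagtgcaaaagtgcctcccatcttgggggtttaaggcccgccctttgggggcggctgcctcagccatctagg
Lepr: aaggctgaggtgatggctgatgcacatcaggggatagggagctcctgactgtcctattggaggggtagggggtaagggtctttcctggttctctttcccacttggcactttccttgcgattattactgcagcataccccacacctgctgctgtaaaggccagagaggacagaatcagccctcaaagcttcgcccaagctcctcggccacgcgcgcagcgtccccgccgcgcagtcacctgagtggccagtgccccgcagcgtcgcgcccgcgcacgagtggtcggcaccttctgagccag

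Depth was similar in the 3 libraries, at 11028671 counts for chow, 12279537 for HFD and 10969699 for DfCS-Ib. Levels are given as CPM, counts scaled to library size with TMM factors, and ranges in parentheses are 95% exact counting intervals, which do not cover differences between animals. A gene was called measured with a mean of at least 1 CPM, which 13153 genes were, and called different where CPM plus 1 differed by at least 2-fold between libraries. The share of genes at least 2-fold higher among all that differed depended on the scaling. In HFD against chow it was 60.5% and 70.1% without scaling factors, and in DfCS-Ib against HFD it was 54.9% and 43.5% without them. Fewer cells of a type and less RNA per cell cannot be told apart in whole tissue.

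Of the 9 genes, 7 were measured, and Fkbp5 and Errfi1 were listed at 0 in all libraries. The deposited tables place both on sequences off the main chromosomes, where 889 of 1144 genes (77.7%) were listed at 0 in all libraries, against 44.3% of the genes on the main chromosomes. Their listing at 0 therefore does not show that the liver lacked them. A count of 0 allows up to 3 counts, or 0.279, 0.233 and 0.280 CPM in the chow, HFD and DfCS-Ib libraries, as an upper limit alone, and the upper ends of the exact intervals used for the other levels are 0.343, 0.287 and 0.344 CPM.

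The measured genes fell into 2 kinds. Zbtb16, Lepr and Fam107a were lower in the HFD library than in both others by at least 2-fold, and Nr3c1, Tsc22d3, Sgk1 and Klf9 were within 1.5-fold between the HFD library and each of the others. In HFD against chow, 3 of 7 were at least 2-fold lower and 0 at least 2-fold higher, against 2.27% and 3.47% of all measured genes. In DfCS-Ib against HFD, 3 of 7 stood above by at least 2-fold and 0 below, against 2.46% and 2.02%. In DfCS-Ib against chow, 1 of 7, Lepr, was at least 2-fold lower and 0 were higher by as much, against 0.433% and 1.62%. Fam107a was 2.12-fold below chow by the ratio of scaled counts but fell short in CPM plus 1 (log2 ratio -0.91), so it was not counted. The HFD library was at least 2-fold below both others for 1.38% of all measured genes. Within 1.5-fold were 4 of 7 in HFD against chow, 4 of 7 in DfCS-Ib against HFD and 5 of 7 in DfCS-Ib against chow, beside 81.9%, 85.2% and 91.3% of all measured genes. The first and the second of these comparisons share the HFD library, so a low value there enters both with opposite sign.

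**Figure D1:**
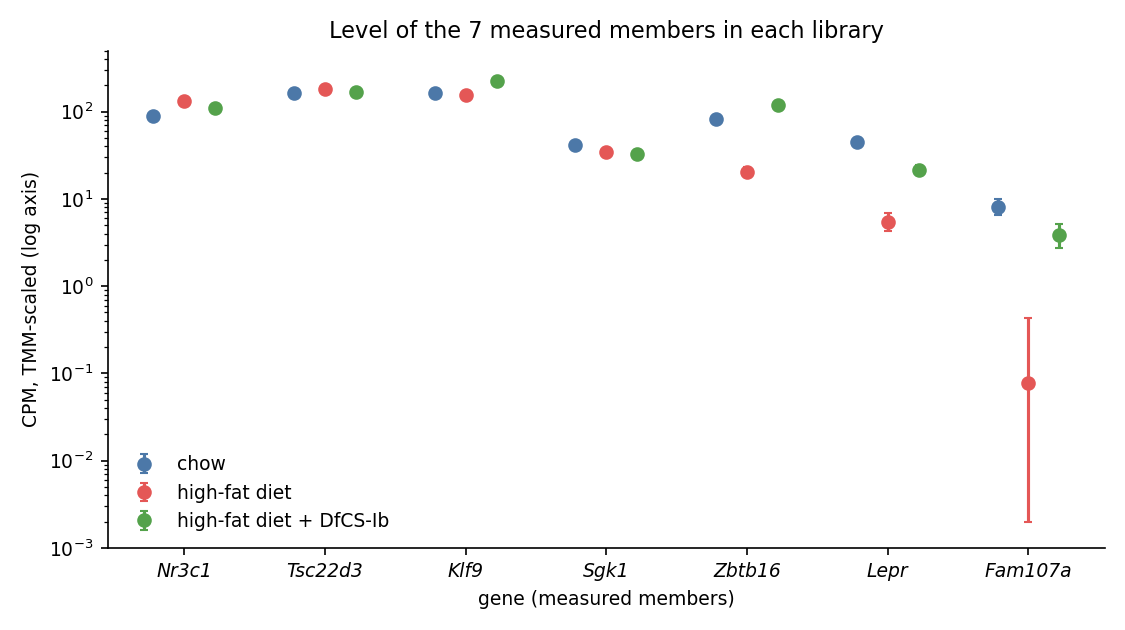
Level of the 7 measured genes in the chow, HFD and DfCS-Ib libraries, in TMM-scaled CPM on a log axis, with 1 point per library and 95% counting intervals as bars. Zbtb16, Lepr and Fam107a dip in the HFD library (20.6, 5.44 and 0.0777 CPM), while Nr3c1, Tsc22d3, Klf9 and Sgk1 stay within 1.5-fold of their HFD level.

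Nr3c1 (chromosome 18, 39410545 to 39519416 of mm10, minus strand), which encodes the glucocorticoid receptor, had 957 counts in the chow library, 1692 in HFD and 1195 in DfCS-Ib. Its levels were 88.9 CPM (83.4 to 94.8), 131 CPM (125 to 138) and 111 CPM (105 to 118). It was highest in the HFD library, where Zbtb16, Lepr and Fam107a were lowest, and the counting intervals of its levels in the 3 libraries did not overlap. The ratio of scaled counts was 1.48 (1.37 to 1.602) for HFD to chow, 0.847 (0.786 to 0.913) for DfCS-Ib to HFD and 1.25 (1.15 to 1.37) for DfCS-Ib to chow.

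Tsc22d3 (chromosome X, 140539528 to 140600522, minus strand) encodes GILZ, a leucine zipper protein that is among the most widely used readouts of receptor activity. It measured 164 CPM in chow, 184 CPM in HFD and 169 CPM in DfCS-Ib, from 1769, 2369 and 1813 counts. Between libraries it spanned 0.16 on the log2 scale, the narrowest range of the 7 genes and below the median range of 0.38 over all measured genes. The HFD to chow ratio was 1.12 (1.05 to 1.19) and the DfCS-Ib to chow ratio 1.03 (0.962 to 1.098).

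Klf9 (chromosome 19, 23141226 to 23166911, plus strand), a Krüppel-like transcription factor induced by glucocorticoid and thyroid hormone, measured 163, 157 and 223 CPM in the chow, HFD and DfCS-Ib libraries, from 1755, 2026 and 2389 counts. Chow and HFD did not differ beyond counting error, with a ratio of 0.965 (0.905 to 1.03). Its log2 ratio of HFD with chow was -0.05 and turned to 0.05 without scaling factors and with RPKM plus 1. DfCS-Ib was above both others, by 1.41-fold (1.33 to 1.501) over HFD and 1.37-fold (1.28 to 1.45) over chow.

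Sgk1 (chromosome 10, 21882184 to 21999903, plus strand), a kinase that controls sodium channels and other transporters, measured 41.1, 34.1 and 33.0 CPM, from 442, 439 and 354 counts. It was highest in chow, by a ratio of 0.831 (0.726 to 0.950) for HFD to chow. HFD and DfCS-Ib did not differ beyond counting error (0.967, 0.838 to 1.12).

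Zbtb16 (chromosome 9, 48651797 to 48836381, minus strand), a zinc finger transcription factor also called PLZF, had 892 counts in chow, 265 in HFD and 1271 in DfCS-Ib. The levels were 82.9 CPM (77.5 to 88.5), 20.6 CPM (18.2 to 23.2) and 118 CPM (112 to 125). The HFD library was lowest and the DfCS-Ib library highest, above chow. HFD was below chow by 4.03-fold (3.50 to 4.63), DfCS-Ib above HFD by 5.75-fold (5.04 to 6.59) and above chow by 1.43-fold (1.31 to 1.56). Of all measured genes, Zbtb16 included, 63 had a log2 ratio of HFD with chow as low or lower. For DfCS-Ib with HFD, 24 had one as high or higher, again with Zbtb16 included. A noncoding gene on the opposite strand, Gm32280, lies within Zbtb16 and had 28, 1 and 14 counts, and the strand setting of the counting is not given in the sources used here.

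Lepr (chromosome 4, 101717407 to 101815354, plus strand) had 483, 70 and 230 counts in the chow, HFD and DfCS-Ib libraries. Its levels were 44.9 CPM (41.0 to 49.1), 5.44 CPM (4.24 to 6.87) and 21.4 CPM (18.8 to 24.4), and no interval overlapped another. The order was chow, then DfCS-Ib, then HFD. HFD was below chow by 8.25-fold (6.41 to 10.8), and 16 measured genes, Lepr included, had a log2 ratio as low or lower. DfCS-Ib was above HFD by 3.94-fold (3.004 to 5.23) and below chow by 2.09-fold (1.79 to 2.46), so it lay between the other libraries. That last difference was counted as 2-fold in CPM plus 1 (log2 ratio -1.03) but not when 1 was added to RPKM (-0.87) or 5 to CPM (-0.92), where the added value is larger beside the level. Counts per gene do not separate the long signalling form of the receptor from its short and soluble forms. The neighbouring gene Leprot, which encodes a membrane protein that limits leptin receptor at the cell surface, measured 12.9, 16.4 and 18.7 CPM and was not lowest in HFD.

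Fam107a (chromosome 14, 8296270 to 8318018, minus strand), a stress-inducible gene whose product binds actin, was the least abundant of the 7, with 87 counts in chow, 1 in HFD and 41 in DfCS-Ib. The levels were 8.09 CPM (6.48 to 9.97), 0.0777 CPM (0.00197 to 0.433) and 3.82 CPM (2.74 to 5.18). Its order over the libraries was the same as that of Lepr. HFD was below chow by a ratio of 104 (18.2 to 4156). The DfCS-Ib library was above HFD by a ratio of 49.2 (8.35 to 1989), as wide as that because HFD had 1 count, and below chow by 2.12-fold (1.44 to 3.15). On the log2 scale of CPM plus 1 the DfCS-Ib difference from HFD was 2.16, and it fell short of 2-fold when 1 was added to RPKM (0.95) or 5 to CPM (0.80). At these low levels the size of the log2 difference is set by the value added.

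**Figure D2:**
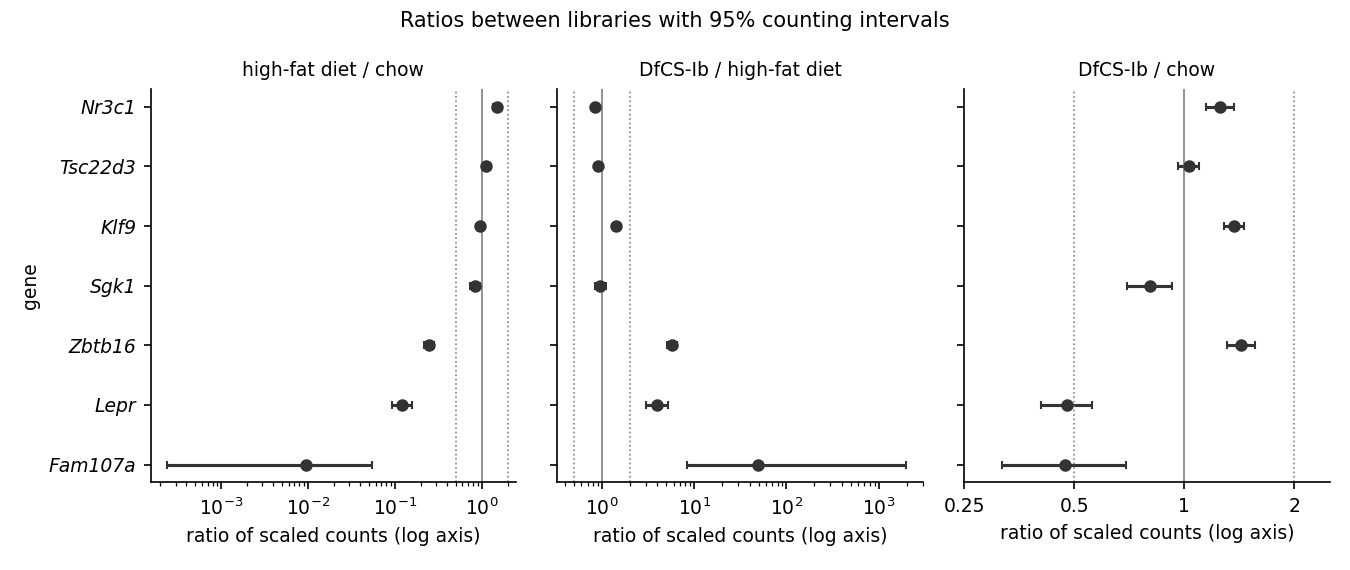
Ratio of scaled counts (log axis, different in each panel) for the 7 measured genes in HFD over chow, DfCS-Ib over HFD and DfCS-Ib over chow, with 95% counting intervals as bars, a solid line at equality and dotted lines at 2-fold. Zbtb16, Lepr and Fam107a lie left of the lower dotted line in the first panel and right of the upper one in the second, and in the third Zbtb16 lies on the other side of equality from Lepr and Fam107a.

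The profiles of the 7 genes over the libraries were compared by the distance between log2 (CPM plus 1) values, each gene centred on its mean. Lepr and Fam107a were 0.26 apart, but this distance rests on the 1 count of Fam107a in HFD and on the value added, and it was 0.81 with 0.5 CPM added and 0.64 with 5 CPM added. Zbtb16 lay 1.09 from Lepr and 1.06 from Fam107a. Nr3c1 and Tsc22d3 were 0.29 apart, whereas Nr3c1 was 2.14, 2.41 and 2.61 from Zbtb16, Lepr and Fam107a. The genes therefore did not share a single profile in these libraries. With 3 libraries no correlation was computed.

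**Figure D3:**
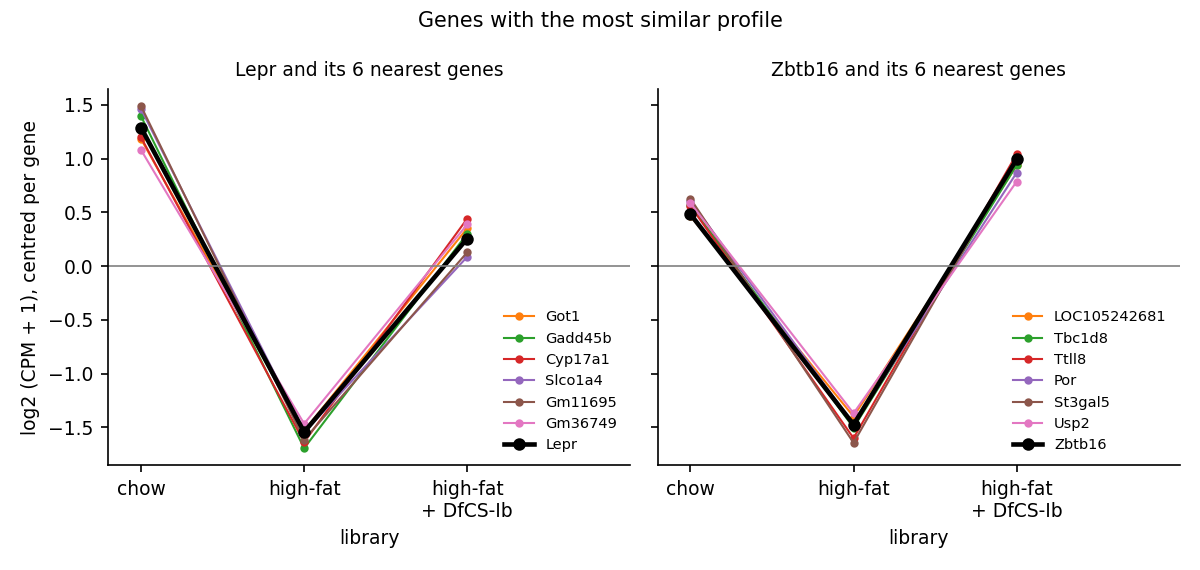
Centred log2 (CPM plus 1) of Lepr and Zbtb16 (black) and of the 6 genes nearest to each (colours) in the chow, HFD and DfCS-Ib libraries, joined by lines only to follow a gene. Both black profiles are lowest in HFD, Lepr is highest in chow and Zbtb16 is highest in DfCS-Ib, and the nearest genes lie within 0.26 and 0.25 of them by distance.

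Per length of transcript, with the RPKM given by the authors, the order of levels also differed between libraries. In chow, Klf9 (48.8 RPKM, 46.5 to 51.1) was above Tsc22d3 (41.4 RPKM, 39.5 to 43.4). Next came Nr3c1, Zbtb16 and Sgk1 at 10.6, 10.2 and 9.64 RPKM, neighbours that did not differ beyond counting error, and then Lepr at 6.60 and Fam107a at 2.04 RPKM. In HFD, Klf9 and Tsc22d3 were level at 50.6 and 49.8 RPKM with overlapping intervals, followed by Nr3c1 at 16.8, Sgk1 at 8.60, Zbtb16 at 2.72, Lepr at 0.859 and Fam107a at 0.0211 RPKM. In DfCS-Ib, Klf9 stood at 66.7 and Tsc22d3 at 42.6 RPKM. Zbtb16 at 14.6 RPKM (13.8 to 15.4) and Nr3c1 at 13.3 RPKM (12.5 to 14.1) overlapped, and Sgk1, Lepr and Fam107a followed at 7.76, 3.16 and 0.967 RPKM.

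Like the members, the gene lists read from here on were chosen with earlier results of these data known, and their counts are a description. Other genes that glucocorticoids are known to induce were taken from a list of 31, of which 29 were measured. Of these, 14 were at least 2-fold lower in HFD than in chow and 0 higher by as much, against 2.27% and 3.47% of all measured genes. The median log2 ratio was -0.95 beside 0.02 over all measured genes. In DfCS-Ib against HFD, 14 stood above by at least 2-fold and 0 below (median 0.92, beside -0.01), against 2.46% and 2.02%. Of the 29, 10 were at least 2-fold lower in HFD than in both others, against 1.38%. DfCS-Ib and chow differed by 2-fold for 5, of which 3 were lower and 2 higher in DfCS-Ib, against 0.433% and 1.62%. The metallothionein genes Mt2 and Mt1, whose products bind zinc and copper, had log2 ratios of -7.08 and -6.06 for HFD with chow.

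Enzymes of amino acid breakdown stood among them. Got1, the cytosolic aspartate aminotransferase gene, measured 1246 CPM in chow, 189 CPM in HFD and 700 CPM in DfCS-Ib, 6.60-fold lower (6.32 to 6.89) in HFD than in chow. Tat, the tyrosine aminotransferase gene and a classical receptor target, measured 4871, 2034 and 5250 CPM, 2.39-fold lower (2.36 to 2.43) in HFD than in chow. Bcl6, a transcriptional repressor gene, was 4.95-fold lower (3.93 to 6.30) in HFD than in chow and stayed at 9.97 CPM in DfCS-Ib, 3.51-fold (2.83 to 4.40) below chow. Per1, a period gene that glucocorticoids induce directly, measured 38.8, 15.3 and 27.6 CPM. It had the same order as Lepr, chow above DfCS-Ib above HFD, 2.54-fold lower (2.14 to 3.02) in HFD than in chow and 1.41-fold lower (1.21 to 1.64) in DfCS-Ib than in chow. Not all genes of the list were lowest in HFD, which held for 23 of 29, beside 36.4% of all measured genes. Nfkbia, the NF-κB inhibitor gene, measured 40.0, 44.8 and 43.5 CPM, and Sesn1, a stress-response gene, 13.4, 19.0 and 20.1 CPM.

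The receptor's chaperones, coregulators and hormone-handling enzymes were read next. Of 16 listed and measured genes, 1 was at least 2-fold higher in HFD than in chow and 0 lower by as much, a share near that of all measured genes (3.47% and 2.27%), and none reached 2-fold in DfCS-Ib against HFD, although Serpina6 was lower by that much without scaling factors and with RPKM plus 1. Their median log2 ratio of HFD with chow was -0.08, and it ranged from -0.09 to 0.03 over the settings tried, so it had no stable sign. The higher gene was Serpina6, which encodes corticosteroid-binding globulin, the plasma carrier of the hormone. It measured 37.7, 105 and 53.9 CPM, 2.78-fold higher (2.49 to 3.11) in HFD than in chow and 1.95-fold lower (1.77 to 2.15) in DfCS-Ib than in HFD. Hsd11b1, whose product regenerates active hormone inside the hepatocyte, measured 392, 540 and 541 CPM. Fkbp4, an immunophilin of the receptor complex, was highest in HFD at 189 CPM, beside 120 in chow and 138 in DfCS-Ib, while the chaperone gene Hspa8 was lowest there at 180 CPM, beside 287 and 302. Nr3c2, the mineralocorticoid receptor gene, measured 8.09, 12.8 and 7.74 CPM.

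The list for leptin receptor signalling held downstream genes, Leprot and its relative Leprotl1. Of 12 measured genes of 13 listed, 0 were at least 2-fold different in HFD against chow, beside 2.27% lower and 3.47% higher of all measured genes. In DfCS-Ib against HFD, 1 was at least 2-fold higher, beside 2.46% of all measured genes, so counts this small tell little about the list. That gene was Socs3, a feedback inhibitor of cytokine receptors, at 7.99, 4.12 and 14.0 CPM, 3.39-fold higher (2.47 to 4.73) in DfCS-Ib than in HFD. Irs2, an insulin receptor substrate gene, measured 53.5, 27.9 and 37.0 CPM. Stat3 and Jak2, which carry the receptor's signal, measured 103 and 21.3 CPM in chow, 105 and 25.6 CPM in HFD and 115 and 20.9 CPM in DfCS-Ib.

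Genes induced in the liver by fasting had the same direction as Lepr for the most part. Of 22 measured genes of 23 listed, 12 were at least 2-fold lower in HFD than in chow and 0 higher by as much (median log2 ratio -1.08). Of all measured genes, 2.27% and 3.47% were so. Vnn1 went the other way there, at 29.9, 60.4 and 95.3 CPM in the chow, HFD and DfCS-Ib libraries. The list held 1 gene at least 2-fold higher in HFD without scaling factors, with RPKM plus 1, with 0.5 CPM added and after thinning. In DfCS-Ib against HFD, 15 stood above by at least 2-fold and 0 below (median 1.33), beside 2.46% and 2.02% of all measured genes. This list shares Igfbp1, Pck1, Tat, Lpin1, Ddit4 and Pdk4 with the glucocorticoid list, so the lists are not separate observations. Igfbp1, an insulin-repressed gene for an IGF binding protein, measured 578, 126 and 410 CPM, and Ddit4, an inhibitor of mTORC1, 30.4, 8.63 and 22.1 CPM. Genes induced by feeding lay the other way. Of 11 measured, 9 were at least 2-fold higher in HFD than in chow, beside 3.47% of all measured genes. In DfCS-Ib against HFD, 11 of 11 were at least 2-fold lower, beside 2.02%. Whether the mice of each group were fed or fasted when liver was taken is not given in the sources used here, and its part in the levels of Lepr, Zbtb16 and Fam107a was not tested.

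**Figure D4:**
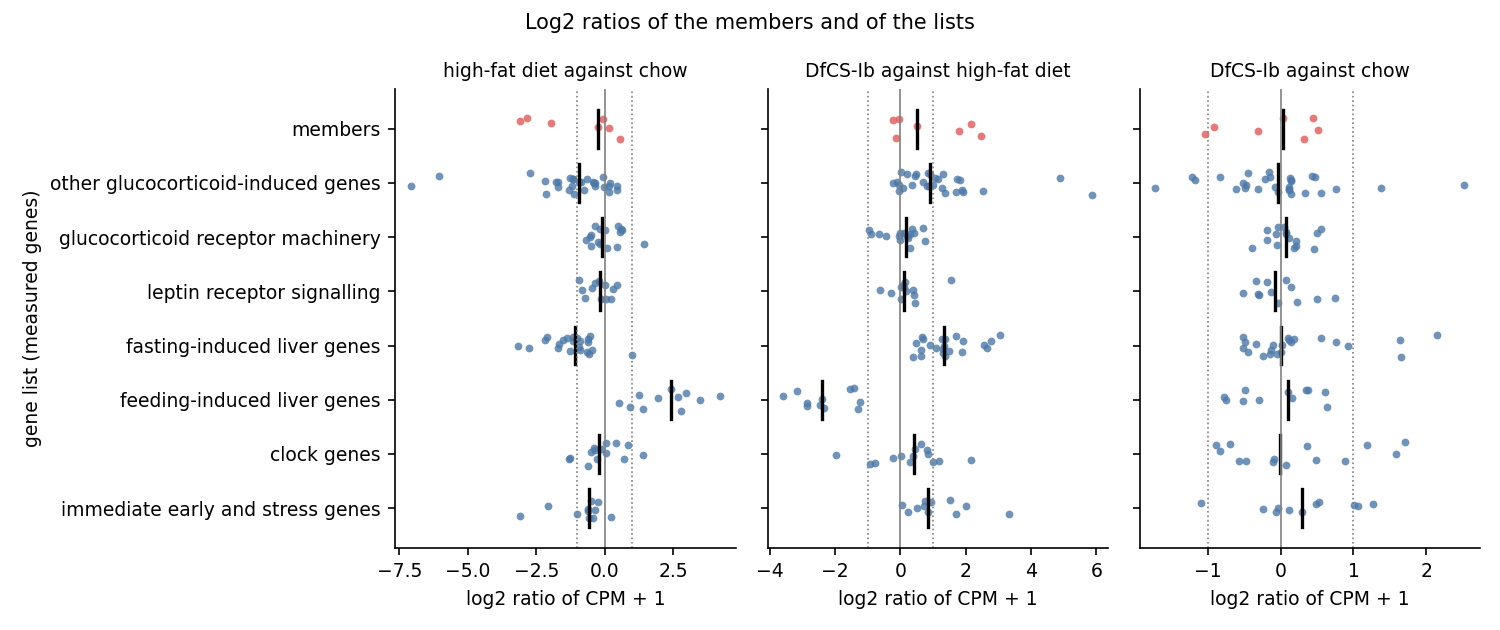
Log2 ratio of CPM plus 1 for each measured gene (1 point per gene) of the members and 7 gene lists in HFD against chow, DfCS-Ib against HFD and DfCS-Ib against chow, with the median as a black bar and dotted lines at 2-fold. The glucocorticoid and fasting lists lie left of 0 in the first panel (medians -0.95 and -1.08) and right of 0 in the second (0.92 and 1.33), opposite to the feeding list.

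Markers of other cell types and of the clock were read beside these genes. The summed level of 7 Kupffer cell markers was 248 CPM in chow, 312 CPM in HFD and 554 CPM in DfCS-Ib. Of the 7, 0 were at least 2-fold different in HFD against chow, beside 2.27% lower and 3.47% higher of all measured genes. In DfCS-Ib against HFD, 2 of 7 were at least 2-fold higher, beside 2.46%, and in DfCS-Ib against chow 3 of 7, beside 1.62%. The summed level of 6 endothelial markers was 273, 260 and 304 CPM, and of 6 stellate cell markers 320, 270 and 376 CPM. The stellate sum was mostly Dcn (189, 139 and 213 CPM), which was lower in HFD than in chow, as were Reln, Lrat and Des. Pdgfrb and Col3a1 were higher in HFD than in chow. Col3a1 (9.94, 23.2 and 21.2 CPM), 1 of 6, was at least 2-fold above chow in HFD and in DfCS-Ib, beside 3.47% and 1.62%. The endothelial marker Lyve1, 1 of 6, was at least 2-fold lower in HFD than in both others, beside 1.38%. Hepatocyte markers, 6 of 6 measured, summed to 130944, 103327 and 114526 CPM, mostly Alb (112771, 85030 and 93946 CPM). Ttr, Serpina1c and Apoa1 were higher in HFD than in chow, by 1.64-fold, 1.29-fold and 1.07-fold, so the markers did not share a direction. Of the 6, Tat and Cps1 were at least 2-fold lower in HFD than in chow, beside 2.27% of all measured genes. Both are also in the glucocorticoid list, where they count among the 14 lower genes. Cps1 is placed on a sequence off the main chromosomes, with 1203, 623 and 837 counts, so its level may be incomplete. Lep was listed at 0 in all libraries and the adipocyte markers Adipoq and Plin1 had at most 1 count in a library, while the last of the 4 adipocyte markers, Fabp4, had 73, 77 and 112 counts (6.78, 5.98 and 10.4 CPM). The 4 skeletal muscle markers had at most 1 count, and Ckm, Myh4 and Mb were listed at 0. Of the exocrine pancreas markers Cela1 alone had counts above 0, at 3.35, 13.2 and 5.31 CPM, with Cpa1, Pnlip and Ctrb1 listed at 0. Of 4 adrenal markers, Star had 26, 27 and 29 counts, and Cyp11b1, Cyp11a1 and Cyp21a1 were listed at 0, the last of them on a sequence off the main chromosomes. Of the clock genes, 14 of 15 were measured. In HFD against chow, 2 (Per1 and Ciart) were at least 2-fold lower and 1 (Npas2) higher, beside 2.27% and 3.47% of all measured genes. With RPKM plus 1 it was 0 in either direction. In DfCS-Ib against HFD, 3 stood above by at least 2-fold and 1 below, beside 2.46% and 2.02%. Dbp, at 3.35, 6.06 and 13.1 CPM in the chow, HFD and DfCS-Ib libraries, and Nr1d1, at 31.5, 42.1 and 97.0 CPM, were highest in DfCS-Ib. Npas2, at 2.14, 7.23 and 1.12 CPM, was lowest there, as were Arntl, Cry1 and Per2. The part of cell makeup and of the time of day in the levels of the members was not tested.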

How the data were processed

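Liver RNA of 3 groups, 1 library each, was measured by RNA sequencing. The authors deposited raw read counts per gene and RPKM, per the file headers. TopHat2 was the aligner and mm10 the build, per the submitters' processing notes. How reads were assigned to genes, with which strand setting and annotation, is not given in the sources used here. The deposited RPKM was the count scaled by the listed length and file total, within 0.000506% for genes with at least 100 counts.

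CPM were computed from the counts with TMM factors (0.976, 1.05 and 0.978 for chow, HFD and DfCS-Ib) in edgeR 4.0.16 under R 4.3.3. Log2 ratios used CPM plus 1, a scale that makes differences of scarce transcripts look smaller. Ratios of scaled counts have exact (Clopper-Pearson) 95% intervals from the binomial split of the counts, and levels have exact Poisson intervals. Both cover counting error only, since each group had 1 library. They treat each count as a separate molecule, while the sources name no molecular identifiers for the reads. With 1 library per group there is no test and no p-value. The ratio calculation was tested on simulated data.

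The members and gene lists were chosen with earlier results of these data known. Named were the members, Leprot, Per1, the genes of each list with the largest HFD to chow ratios (up to 5, a selection of which is printed) and the 6 genes with the profile nearest to Lepr among genes with at least 50 counts in all. The same was planned for Fkbp5, which is listed at 0, so Zbtb16 took its place after its values were seen. Tat, Nfkbia, Sesn1, Hsd11b1, Stat3, Jak2, Vnn1, Nr1d1, Arntl, Cry1, Per2, Apoa1 and Des were also named after their values were seen. Promoter windows came from RefSeq; alternatives are given in the closing section.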

Additional observations from a re-analysis of the deposited data

How the results depend on the processing

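No paired analysis was possible because each group had 1 library, and for the same reason no replicate could be left out. The alternatives were no scaling factor, DESeq2 size factors (version 1.42.0), the RPKM given by the authors plus 1 and without scaling factors, 0.5 or 5 CPM added in place of 1, no filter on low values, and thinning to the smallest total. Zbtb16 and Lepr were at least 2-fold lower in HFD than in both other libraries under each of these 7 settings. Fam107a was so under 5 of them, the exceptions being RPKM plus 1 and 5 CPM added, where the added value is large beside its level. Of 7 members, the count at least 2-fold different between DfCS-Ib and chow went from 1 to 0 with RPKM plus 1 and with 5 CPM added, and to 2 at a 1.5-fold threshold, which was added after the data were seen. With 5 CPM added, 394, 294 and 103 of all measured genes were at least 2-fold different in HFD against chow, DfCS-Ib against HFD and DfCS-Ib against chow, in place of 755, 590 and 270. At 1.5-fold these were 2385, 1944 and 1150, and with RPKM plus 1 the last was 156. Leaving out the scaling factors moved the median log2 ratio of all measured genes from 0.02 to 0.11 in HFD against chow and from -0.01 to -0.10 in DfCS-Ib against HFD. Relative to those medians Klf9 lay below the median gene in HFD against chow with and without the factors. No named gene called 2-fold different changed direction under any alternative. Depth limits Fam107a most, whose HFD level rests on 1 count.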

Other observations

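The genes with a profile most like that of Lepr were sought among 12386 other genes, by the distance between centred log2 (CPM plus 1) values over the 3 libraries. The nearest were Got1 (distance 0.14), Gadd45b (0.19), Cyp17a1 (0.23), Slco1a4 (0.24) and the noncoding genes Gm11695 (0.25) and Gm36749 (0.26). Gadd45b, a stress-inducible gene, had 145 counts in chow, 9 in HFD and 62 in DfCS-Ib. Cyp17a1, a steroid hydroxylase gene, measured 70.0, 8.94 and 41.0 CPM in the chow, HFD and DfCS-Ib libraries. Slco1a4, an organic anion transporter gene, measured 530, 65.0 and 204 CPM. Like Lepr, each of these genes was highest in chow and lowest in HFD, which follows from the way they were chosen. The choice depended on the value added, as checked after the data were seen: 4 of the 6 were again among the nearest with 0.5 CPM added, 1 with 5 CPM added and 0 with RPKM plus 1. Gm11695, Gm36749 and Cyp17a1 overlap a gene on the opposite strand, and no strand setting is stated that would separate their reads.

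For Zbtb16, which was highest in DfCS-Ib, the nearest genes were the noncoding gene LOC105242681 (distance 0.10), Tbc1d8 (0.11), Ttll8 (0.16), Por (0.17), St3gal5 (0.22) and Usp2 (0.25). Por, which encodes the electron donor of microsomal cytochromes P450, measured 754, 177 and 904 CPM in the chow, HFD and DfCS-Ib libraries. St3gal5, the ganglioside GM3 synthase gene, measured 485, 99.6 and 636 CPM, and LOC105242681 overlaps it on the opposite strand, so these are not separate observations. Usp2, a deubiquitinase gene whose level in liver follows the daily rhythm, measured 16.7, 3.57 and 19.4 CPM. With 0.5 CPM added 5 of these 6 were again nearest, with 5 CPM added 3 and with RPKM plus 1 only Tbc1d8. All 6 were at least 2-fold lower in HFD than in both other libraries, which follows from the way they were chosen, and all 6 overlap a gene on the opposite strand.

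Immediate early and stress genes were at least 2-fold lower in HFD than in chow in 3 of 11 measured cases and higher by as much in 0. Of all measured genes, 2.27% and 3.47% were so. The count of lower genes went from 3 to 2 without scaling factors, with RPKM plus 1, with 5 CPM added and after thinning. In DfCS-Ib against HFD 4 of 11 stood above by at least 2-fold and 0 below, beside 2.46% and 2.02% of all measured genes. Egr1, an immediate early transcription factor gene, measured 18.0, 3.57 and 44.8 CPM and Btg2, an antiproliferative gene, 17.7, 11.1 and 38.0 CPM, both with the DfCS-Ib library above chow. Gadd45b, at 13.5, 0.699 and 5.78 CPM, and Jun, at 37.1, 18.0 and 31.3 CPM, had the DfCS-Ib library below chow. Of the 11, 3 were at least 2-fold higher in DfCS-Ib than in chow and 1, Gadd45b, lower by as much, beside 1.62% and 0.433%.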
